A study of Homo sapiens with 14 samples.

Results

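Interferon-stimulated genes are the genes that a cell switches on when interferon binds its receptors. The 39 genes described here are a named list of such genes, and a gene was measured by the array probes whose accession maps to it. On the arrays, 38 of the 39 genes had a probe, with 49 probes between them, out of 20992 genes named and 50599 different probes. IFI27 had no matched probe, and 10 genes had more than 1 probe.

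The study lowered the long noncoding RNA LINC00152 in A172 and U87, established lines of human glioblastoma cells, and asked which genes respond. Each culture was electroporated with 20 pmol/ml of siRNA and its total RNA was taken 40 h later per the labels, labelled with Cy3 and read on a one-colour Agilent array. In A172, 3 cultures received a negative control siRNA of medium GC content with no target and 3 received siLINC00152, which targets exon 1. In U87 there were 4 cultures of each kind. The labels describe the cultures as independent biological experiments, and the control and knockdown culture of an experiment share a set number (A172 has numbers 1 to 3 and U87 has numbers 1 to 4). Each line is 1 cell line, so the number of lines is not a number of donors.

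Type I and type III interferons bind receptor pairs whose kinases, JAK1 and TYK2, switch on a complex that includes STAT2 and IRF9 and binds the interferon-stimulated response element of its target genes. Interferon gamma acts at another element, the gamma-activated site. The products block steps of viral replication, tag proteins with ISG15, or load peptides for T cells, and some tumour cells keep a low level of these genes switched on without infection.

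The arrays carried 58717 spots other than control spots. A level below is the log2 of the processed signal, an intensity after background removal, minus the 75th percentile of its array, and is called the log2 relative signal. A probe is said to be well above background where the scanner software marked at least 0.5 of its spots so. The share of such spots was 57.3% to 69.0% on the A172 arrays and 35.7% to 48.3% on the U87 arrays, with the lowest share on the U87 control array of set 3. For A172, 3 slides held 1 pair of arrays each, and the 8 U87 arrays shared 1 other slide. Levels of the cell lines and of their slides therefore cannot be told apart, and slide and pair are 1 block in A172.

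The glioblastoma label was checked against 11 markers on the control arrays. In A172, NES, VIM, SOX2, CD44, OLIG2 and EGFR were well above background on every control array, and in U87 NES, VIM, CD44, CHI3L1 and EGFR were. The astroglial marker GFAP was above background on 1 control array of A172 and on 0 of U87, SOX2 was on 0 of 4 in U87, and S100B and FABP7 were on 0 in either line. Of 8 leukocyte markers with a probe, 7 in A172 and 5 in U87 were on every control array, PTPRC, CD14 and CD68 among them in both. Of 4 endothelial markers the counts were 4 and 2, and of 5 epithelial markers 2 and 1. What bound to the probes for other cell types was not tested. CD44, a surface receptor of mesenchymal glioblastoma cells, has 2 probes, and the values are those of the brightest tested one. Its log2 fold changes were -1.13 in A172 (adjusted p = 1.00, standard error 0.56) and 0.12 in U87. The A172 value was called when the set number was in the model (adjusted p = 0.00807).

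The target itself was lower on every knockdown array. The LINC00152 probe read 2.63, 2.44 and 2.48 on the A172 control arrays of sets 1 to 3 and 0.23, -0.42 and -0.10 on the knockdown arrays. On the U87 arrays it read 1.94, 1.83, 1.71 and 1.82 in the control and -1.21, -0.88, -0.74 and -0.79 after knockdown. The groups did not overlap in either line. In a limma model of all 14 arrays the log2 fold changes were -2.61 (standard error 0.24, adjusted p = 0.000731) in A172 and -2.73 (standard error 0.21, adjusted p = 4.96e-05) in U87. A probe for the near-identical MIR4435-2HG transcript NR_024373 fell by 2.44 and 2.97 on the log2 scale. Of 2 probes for its transcript NR_015395, 1 had -0.31 in each line, with overlapping groups and no call with or without the set number, and the other had -1.53 and -2.08, called only with the set number. A probe for ENST00000409139 had -1.16 and -1.62, called in U87 (adjusted p = 0.120) and with the set number in both lines.

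Most of the interferon-stimulated genes were already on in A172 controls, and fewer were in U87. In A172, 28 of 38 genes (73.7%) were well above background on every array, against 51.3% of all probes, and 0 of 38 were on no array. In U87, 16 of 38 (42.1%) were on every array, against 31.3% of all probes. A gene with several probes counts by its brightest probe, while the shares of all probes are over single probes. This favours the genes in both lines, so these shares are not like for like. The 8 genes on no U87 array were OAS1, IFITM1, ISG20, MX1, MX2, RSAD2, HERC5 and EPSTI1 (21.1%, against 45.1% of all probes, with the same limit). In bulk cultures, fewer cells of a type and less RNA per cell cannot be told apart.

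**Figure D1:**
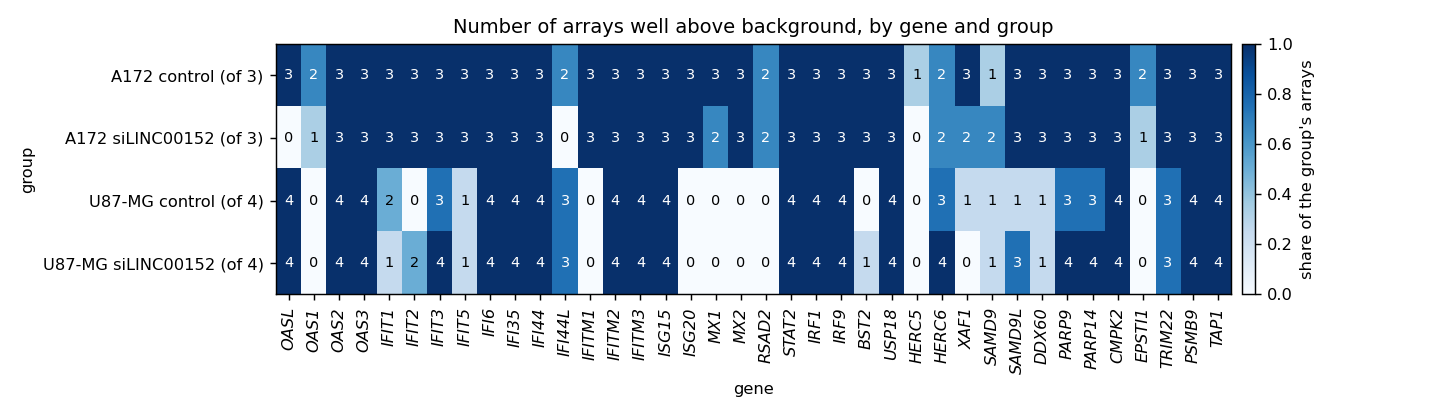
Each column is 1 gene and each row 1 group of arrays, and the number in a field is how many arrays of the group were well above background, with the colour as a share of the group. The A172 rows are nearly filled, with 28 of 38 genes on every array, while 8 genes are at 0 in both U87 rows.

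Among genes tested in both lines, the gap between the control levels of the lines, which cannot be told apart from the slides, was widest for membrane proteins that block viral entry and for OASL. IFITM2, which hinders viral fusion, had a control level of 3.90 ± 0.38 (SD, n = 3) in A172 and 0.53 ± 0.45 (SD, n = 4) in U87. Its neighbour IFITM3 had 4.51 ± 0.36 and 1.17 ± 0.58. ISG15, a ubiquitin-like protein tag, had 4.57 ± 0.46 and 2.15 ± 0.59. OASL, a relative of the 2-5A synthetases without their enzyme activity, lay the other way at -2.48 ± 0.62 and 0.88 ± 0.27. Of the 21 genes tested in both lines, the control arrays did not overlap for 10, against 37.8% of all probes tested in both. ISG15, IFITM3, IFITM2, IFI35, IRF9 and TAP1 were higher in A172, and OASL, USP18, IFI44 and IRF1 were lower.

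Some of the genes are neighbours on the genome, and a motif occurs in many of their promoters. By RefSeq's gene order, 22 of the 39 genes lie in 10 clusters of direct neighbours, such as IFITM2, IFITM1 and IFITM3 on chromosome 11, OAS1, OAS3 and OAS2 on chromosome 12, IFIT2 and IFIT3 on chromosome 10, and SAMD9 and SAMD9L on chromosome 7. RefSeq promoters of 300 bases (GRCh38.p14) were matched for 32 of the 39 genes. The core of the interferon-stimulated response element, GAAA, any 2 bases and GAAA again, or on the other strand TTTC, any 2 bases and TTTC, occurred in a promoter of 22 of the 32 (68.8%) and of 1195 of all 27305 genes (4.38%). The core of the gamma-activated site, TTCNNNGAA, which reads the same on both strands, occurred in 12 of 32 (37.5%) and in 2560 of all genes (9.38%). A match describes the letters of the window and shows no binding.

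The bases upstream of 4 genes are printed 5′ to 3′ on the strand of the gene, since ISG15 is among the brightest genes of the list and IFIT3, PARP14 and SAMD9L were called in a model with the set number, for SAMD9L with the limits given below. The 250 bases end at the transcription start and capitals mark the core of the response element on either strand. For IFIT3 they are chr10:89332279-89332528 on the plus strand, for PARP14 chr3:122680589-122680838 on the plus strand, for ISG15 chr1:1013247-1013496 on the plus strand and for SAMD9L chr7:93148386-93148635 on the minus strand, all from RefSeq on GRCh38.p14.
IFIT3: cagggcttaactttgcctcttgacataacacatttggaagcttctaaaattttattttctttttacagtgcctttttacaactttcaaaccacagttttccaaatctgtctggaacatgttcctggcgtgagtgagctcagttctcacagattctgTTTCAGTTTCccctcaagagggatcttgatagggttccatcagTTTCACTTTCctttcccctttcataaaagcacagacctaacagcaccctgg
PARP14: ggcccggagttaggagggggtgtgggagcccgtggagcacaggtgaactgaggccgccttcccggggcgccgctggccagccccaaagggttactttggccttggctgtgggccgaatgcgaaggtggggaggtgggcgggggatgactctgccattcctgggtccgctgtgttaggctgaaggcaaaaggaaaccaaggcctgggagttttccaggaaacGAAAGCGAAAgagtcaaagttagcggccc
ISG15: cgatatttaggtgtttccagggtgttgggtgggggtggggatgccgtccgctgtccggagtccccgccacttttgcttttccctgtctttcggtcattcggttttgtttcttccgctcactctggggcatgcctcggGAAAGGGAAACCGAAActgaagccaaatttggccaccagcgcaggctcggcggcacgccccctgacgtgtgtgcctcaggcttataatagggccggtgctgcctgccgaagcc
SAMD9L: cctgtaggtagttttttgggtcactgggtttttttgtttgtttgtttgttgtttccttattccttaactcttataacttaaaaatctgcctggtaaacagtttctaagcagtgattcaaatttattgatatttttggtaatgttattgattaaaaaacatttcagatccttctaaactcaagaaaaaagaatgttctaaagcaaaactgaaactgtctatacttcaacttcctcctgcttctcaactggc
The matches begin 94 and 51 bases before the start in IFIT3, 29 bases before it in PARP14, and 113 and 107 bases before it in ISG15, where they overlap. RefSeq lists another IFIT3 start that is not printed (chr10:89327747-89327996), with matches 156 and 122 bases before it. In SAMD9L the letters do not occur in the window printed. CMPK2, HERC6, IFI35, IRF1, IRF9, OAS1, PSMB9, STAT2 and XAF1 likewise have no match in the promoters listed for them.

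In A172 the OASL signal went to background where LINC00152 was lowered to 16.3% of the control, and the other interferon-stimulated genes did not pass the test. Testing in a line required signal well above background on 3 or more of its control arrays or of its knockdown arrays, and a call required an adjusted p below 0.2 with a log2 fold change of over 0.5 in size. Of 31 genes tested, 1 was called, OASL, against 0.184% of all 28337 tested probes. It was called lower (0.138% of all probes), and 0 genes were called higher (0.0459% of all probes). The log2 fold changes ran from -3.09 for OASL to 0.91 for USP18, with a median of -0.09, and 21 of 31 were below 0 (67.7%, against 45.6% of all tested probes, whose median was 0.02). At an unadjusted p under 0.05 there was also 1 gene, OASL, against 2.28% of all probes. The median difference was -0.24 in the pair of set 1, -0.21 in that of set 2 and 0.00 in that of set 3.

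The arrays of a set number deviated together from their group means, and this spread enters the error of the fold changes. With the set number as a replicate block in the model, the median standard error of the genes was 0.17 in place of 0.41, and 3 of 31 genes were called in A172, against 3.26% of all probes. OASL and PARP14 were lower (2.17% of all probes) and USP18 was higher (1.09% of all probes). Without the arrays of set 3 of U87, the dimmest, the blocked count in A172 was 7, with IFITM1, MX1, PARP9 and TRIM22 added, since 1 error is shared by both lines. Without set 2 or 3 of A172 it was 1, OASL, and without set 1 of A172 PARP14 was lost. With normexp background correction the blocked count was also 1, but the gene was USP18, and OASL and PARP14 were not called. That setting puts a model of signal and background in place of the subtraction by the scanner software. It also adds an offset of 50 and takes the median signal, so its changes cannot be put down to a single choice. The groups did not overlap for 1 gene higher after knockdown, USP18 (3.44% of all probes), and for 4 lower, OASL, MX1, PARP9 and TRIM22 (3.65% of all probes). Of these 4, OASL and MX1 met the condition for testing only through their higher group, the controls. In every pair 6 genes were higher (19.4% of all probes) and 11 lower (16.9% of all probes).

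In U87 no interferon-stimulated gene passed the test. Of 23 genes tested, limma called 0, against 0.0502% of all 21919 tested probes (0.00912% higher and 0.0411% lower), and 1 had an unadjusted p under 0.05, IFIT3 (2.31% of all probes). The median log2 fold change was -0.00, with 12 genes below and 11 above 0, and the median over all tested probes was -0.02. With the set number in the model, 3 of 23 genes were called, IFIT3, SAMD9L and USP18, against 4.19% of all probes. All 3 were higher (2.12% of all probes) and 0 lower (2.07% of all probes), and SAMD9L met the condition for testing only through its higher group. That count was 0 without U87 set 1 or 2, 1 without U87 set 4 and 1 with normexp. The groups did not overlap for 1 gene higher after knockdown, IFIT3 (1.8% of all probes), and for 0 lower (0.999% of all probes). In every pair 6 genes were higher, IFIT3, IFI35, ISG15, IRF1, USP18 and SAMD9L (16.6% of all probes), and 1 was lower, IFI44L (13.9% of all probes).

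**Figure D2:**
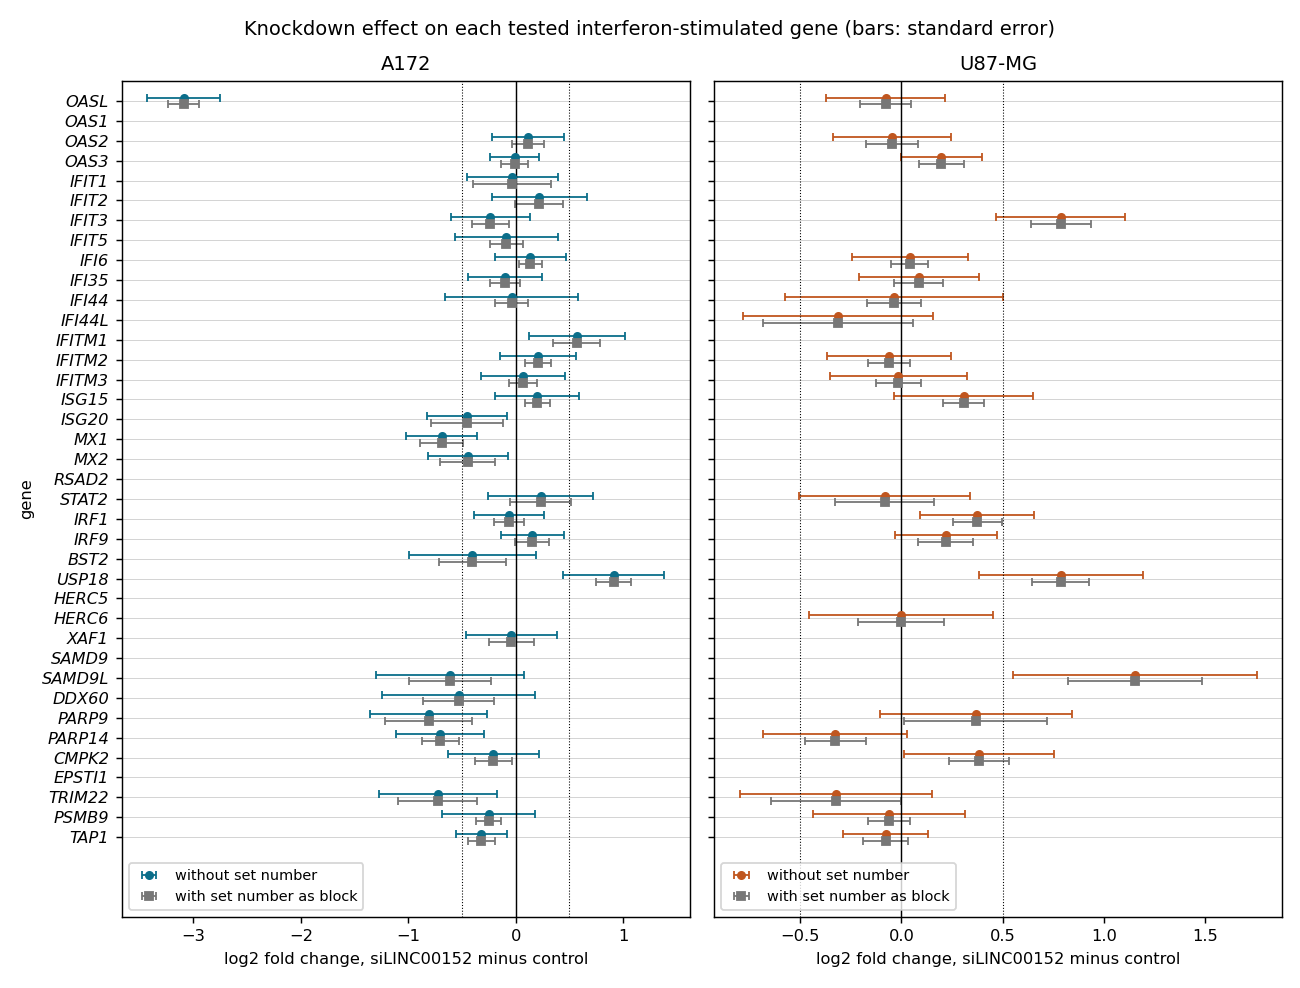
The horizontal axis is the log2 fold change of knockdown minus control and each line of the plot is 1 gene, left in A172 and right in U87, with coloured circles for the model without the set number, grey squares for the model with it and bars for standard errors. OASL in A172 stands alone at -3.09, most other genes lie between the dotted thresholds of 0.5, and genes without a point were not tested.

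The 2-5A synthetases make the messenger that activates RNase L, which degrades RNA. Their relative OASL read -2.70, -1.78 and -2.97 on the A172 control arrays, all well above background, and -5.89, -4.96 and -5.86 on the knockdown arrays, none of them above background. In U87 it read 0.99, 1.07, 0.48 and 0.99 in the control and 1.00, 0.85, 0.72 and 0.65 after knockdown. The A172 groups were far apart and the U87 groups overlapped. With knockdown OASL fell in A172 by 3.09 log2 units (lower in 3 of 3 pairs, standard error 0.34, adjusted p = 0.00239), which is at least 2.61-fold, taken from the mean of the bright group against the mean of the dim group with each dim array set to its lowest signal well above background, or to the signal of the probe where that was higher. The value of 3.09 itself rests on knockdown signals below the background threshold, so its size is not exact. OASL met the condition for testing in A172 only through its higher group, the controls, which favours a fall, and the call was kept when no filter on dim probes was applied (adjusted p = 0.00452). In U87 the log2 fold change was -0.08 (standard error 0.29, adjusted p = 1.00). The A172 call was lost with normexp background correction, at -0.44 (standard error 0.19, adjusted p = 1.00), and with normexp and the set number as well, and it was kept whichever set number was left out.

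The enzymes of the family did not pass the test in either line. OAS2 read 1.35, 2.39 and 2.29 in A172 controls and 1.83, 2.38 and 2.16 after knockdown, and its log2 fold changes were 0.11 (standard error 0.34) in A172 and -0.05 (standard error 0.29) in U87. OAS3 read 0.59, 0.82 and 0.67 and then 0.78, 0.71 and 0.56, with log2 fold changes of -0.01 and 0.20. On these probes, the brightest of each gene, the control and knockdown arrays overlapped in both lines. Another OAS2 probe, well above background on all 6 A172 arrays, was lower in 3 of 3 pairs without overlap, with -0.26 (standard error 0.28, adjusted p = 1.00, and not called with the set number). OAS1 was near background, on 2 of 3 control and 1 of 3 knockdown arrays of A172.

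The IFIT proteins bind foreign RNA and slow its translation, and IFIT3 steadies IFIT1 on it. IFIT3 read -1.56, -1.74, -2.53 and -1.43 on the U87 control arrays, that of set 3 below the background threshold, and -0.87, -1.18, -1.39 and -0.67 after knockdown. All 4 knockdown arrays were above all 4 control arrays. The log2 fold change was 0.79 (standard error 0.32, unadjusted p = 0.0272, adjusted p = 1.00, higher in 4 of 4 pairs), and with the set number in the model the adjusted p was 0.0713 (standard error 0.15). That call was lost without U87 set 1, 2 or 4 (adjusted p of 0.230, 0.209 and 0.239), and with normexp the log2 fold change was 0.16. In A172, IFIT3 read -0.68, -1.99 and -1.44 and then -1.26, -1.86 and -1.69, with overlapping groups and a log2 fold change of -0.24 (standard error 0.37). The difference between the lines was -1.02 (adjusted p = 1.00, and 0.274 with the set number).

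The other IFIT genes were tested in A172. Their pair means ranged over more than the size of their log2 fold changes, which held for 90.3% of all tested probes. IFIT1 read -0.40, -0.75 and -1.49 in the control and -0.29, -0.96 and -1.49 after knockdown, a log2 fold change of -0.03 (standard error 0.43). IFIT5 and IFIT2 had log2 fold changes of -0.09 and 0.22, and a second probe of IFIT2 had -0.30. For IFIT1 the mean of a pair ranged over 1.14 between the set numbers, and for IFIT5 over 1.26. In U87 these genes were above background on 2 or 3 of 8 arrays and were not tested.

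The next group holds genes named for their induction by interferon. IFI6, a mitochondrial and endoplasmic reticulum protein that delays cell death, read 2.45, 3.24 and 2.94 in A172 controls and 2.56, 3.32 and 3.16 after knockdown. Its log2 fold changes were 0.14 (standard error 0.33) in A172 and 0.04 (standard error 0.29) in U87. IFI35, which binds the factor-interacting protein NMI, had -0.10 and 0.08. IFI44 varied more with the set number than the other genes of the list tested in A172. It read 0.06, -1.91 and -0.73 in the control and -0.08, -2.23 and -0.37 after knockdown, so that the pair means ranged over 2.06 while the log2 fold change was -0.04 (standard error 0.62). Its neighbour IFI44L, tested in U87, was lower in 4 of 4 pairs, at -0.93, -1.13, -2.05 and -0.27 and then -1.38, -1.43, -2.14 and -0.68, with overlapping groups and a log2 fold change of -0.31 (standard error 0.47).

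The IFITM proteins sit in membranes and hinder the entry of enveloped viruses. IFITM1 read -1.92, -0.74 and -1.37 on the A172 control arrays and -1.40, -0.13 and -0.80 after knockdown. It was higher in 3 of 3 pairs while the groups overlapped, and the log2 fold change was 0.57 (standard error 0.45, adjusted p = 1.00, and 0.386 with the set number). Its other probe had 0.48. IFITM2 and IFITM3 had 0.21 and 0.07 in A172 and -0.06 and -0.01 in U87. The pair means ranged over 0.85 for IFITM2 in A172 and over 1.12 for IFITM3 in U87, more than the size of the log2 fold change. This held for 90.3% of all tested probes in A172 and 96.1% in U87, so it was not particular to these genes.

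The ISG15 system attaches the tag ISG15 to proteins, and USP18 removes the tag and also blocks signalling at the type I interferon receptor. USP18 read -0.20, 0.15 and -0.64 on the A172 control arrays and 0.49, 0.95 and 0.61 after knockdown. In U87 it read 1.79, 1.99, 0.29 and 2.20 and then 2.50, 2.78, 1.43 and 2.71. The A172 groups did not overlap, while in U87 both arrays of set 3 lay below the other controls. USP18 was higher in 3 of 3 and in 4 of 4 pairs, with log2 fold changes of 0.91 (standard error 0.47, adjusted p = 1.00) and 0.79 (standard error 0.41, adjusted p = 1.00). With the set number in the model it was called higher in both lines, with adjusted p of 0.0558 in A172 and 0.067 in U87. The call was lost in A172 without its set 2 or 3 (adjusted p of 0.251 and 0.354), and in U87 without its set 1 or 2 (adjusted p of 0.223 and 0.230). The difference between the lines was 0.13 (adjusted p = 1.00), so no difference was detected. With normexp and the set number the log2 fold changes were 0.73 and 0.61, and both were called.

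ISG15 itself read 4.06, 4.96 and 4.68 in A172 controls and 4.31, 5.05 and 4.94 after knockdown, and in U87 2.02, 1.91, 3.00 and 1.65 and then 2.31, 2.37, 3.14 and 1.99. Each knockdown array was above the control array of its set number, and the groups overlapped in both lines. The log2 fold changes were 0.20 (standard error 0.39) and 0.31 (standard error 0.34, adjusted p = 1.00, and 0.206 with the set number). HERC5, the ligase that attaches the tag, was near background, and HERC6, tested in U87, had -0.00 as its log2 fold change (standard error 0.45).

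**Figure D3:**
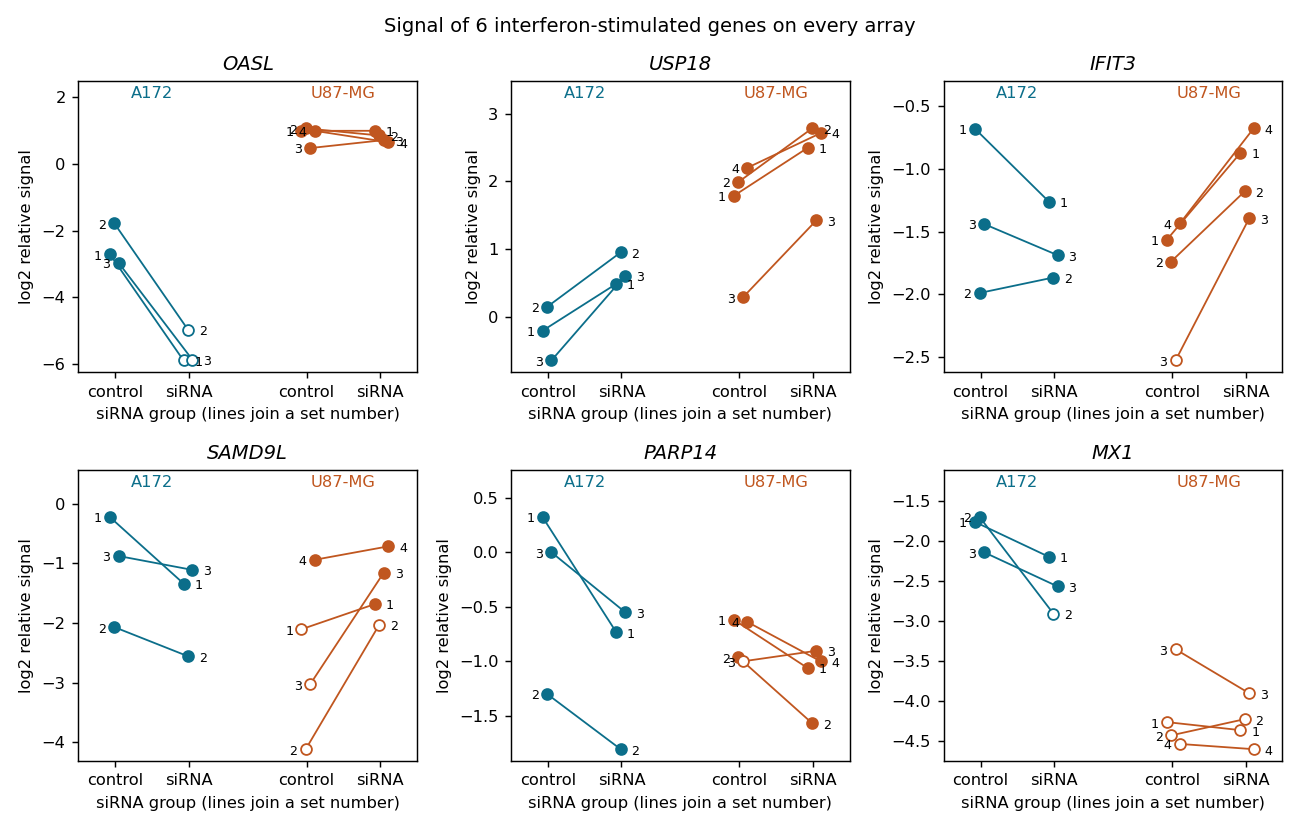
Each panel shows the log2 relative signal of 1 gene on all 14 arrays, with a line joining the control and the siLINC00152 array of a set number, A172 in blue and U87 in orange, and open circles for arrays not well above background. All 3 lines of OASL in A172 drop to open circles, all 7 lines of USP18 go up, and SAMD9L goes down in A172 and up in U87.

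The MX proteins are GTPases that trap viral nucleocapsids. MX1 read -1.76, -1.70 and -2.14 in A172 controls and -2.19, -2.90 and -2.57 after knockdown, the array of set 2 below the background threshold. MX1 met the condition for testing only through its controls, which favours a fall. The groups did not overlap, and the log2 fold change was -0.69 (standard error 0.33, unadjusted p = 0.0547, adjusted p = 1.00, and 0.217 with the set number). MX2 read -1.15, -0.45 and -0.57 and then -1.74, -0.85 and -0.92, lower in 3 of 3 pairs with overlapping groups, with a log2 fold change of -0.45 (standard error 0.37). In U87 neither MX gene was above background on any array.

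Further effectors did not pass the test. ISG20, an RNA exonuclease, was lower in 3 of 3 pairs with a log2 fold change of -0.46 (standard error 0.37). BST2, which tethers budding virions to the cell, had -0.41 (standard error 0.59) and on its other probe -0.94 (standard error 0.56), lower in 3 of 3 pairs on both, but only the controls of the other probe met the condition for testing. TRIM22, an antiviral E3 ligase, read -1.60, -1.90 and -2.11 and then -2.60, -2.81 and -2.38. Its A172 groups did not overlap, yet the log2 fold change of -0.73 had a standard error of 0.55, and in U87 it was -0.32 (standard error 0.48) and 0.14 without set 3. XAF1, a partner of the apoptosis inhibitor XIAP, had -0.04 in A172. RSAD2, known as viperin, was above background on 4 of 6 A172 arrays and was not tested.

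SAMD9L, which slows translation in infected cells, was lower in the A172 pairs and higher in the U87 pairs. It read -0.22, -2.07 and -0.88 in A172 controls and -1.34, -2.56 and -1.11 after knockdown. In U87 it read -2.10, -4.11, -3.03 and -0.94 and then -1.68, -2.02, -1.15 and -0.71, and 4 of these 8 arrays, the controls of sets 1 to 3 and the knockdown of set 2, were below the background threshold. The groups overlapped in both lines. The log2 fold changes were -0.61 (standard error 0.69, lower in 3 of 3 pairs) and 1.15 (standard error 0.60, adjusted p = 1.00, higher in 4 of 4 pairs). With the set number in the model the U87 value was called (adjusted p = 0.167), and the call was lost without A172 set 1, 2 or 3 or U87 set 2 (adjusted p of 0.212, 0.281, 0.263 and 0.365). Only the knockdown group, the higher one, met the condition for testing in U87, with 1 of 4 controls above background, which favours a higher value, so the call is no support for a rise. With normexp the value was 0.18. The difference between the lines was -1.76 (standard error 0.92, adjusted p = 1.00, and 0.414 with the set number), which did not pass the test. The helicase DDX60, tested in A172, had -0.53 (standard error 0.71), and SAMD9 and EPSTI1 were near background.

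PARP9 and PARP14 are ADP-ribosyltransferases that take part in interferon signalling. PARP14 read 0.32, -1.30 and 0.00 in A172 controls and -0.73, -1.80 and -0.55 after knockdown. Each pair went down while the groups overlapped, since set 2 was low throughout. The log2 fold change was -0.70 (standard error 0.41, adjusted p = 1.00), called with the set number in the model (adjusted p = 0.147). That call was lost without A172 set 1, 2 or 3 (adjusted p of 0.544, 0.388 and 0.439) and without U87 set 1 or 4 (adjusted p of 0.223 and 0.225). In U87 the value was -0.33 (standard error 0.36, and adjusted p = 0.319 with the set number), and the difference between the lines was -0.38 (adjusted p = 1.00). PARP9 read -0.07, -0.87 and -0.83 and then -1.25, -1.28 and -1.67 in A172, without overlap, with -0.81 as log2 fold change (adjusted p = 1.00, and 0.582 with the set number, standard error 0.55). Without U87 set 3 the blocked adjusted p of PARP9 in A172 was 0.0673. In U87 its value of 0.37 (standard error 0.47) rested on the control array of set 3 at -3.26, and without that set it was -0.16.

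The transcription factors of the pathway are themselves on the list. STAT2 had log2 fold changes of 0.23 (standard error 0.49) in A172 and -0.08 (standard error 0.42) in U87, and IRF9, its partner in the complex, 0.15 and 0.22. IRF1, which also drives these genes without the complex, read 0.58, 0.83, 0.53 and 0.19 in U87 controls and 0.74, 1.14, 0.98 and 0.77 after knockdown. It was higher in 4 of 4 pairs with overlapping groups, and the log2 fold change was 0.37 (standard error 0.28, adjusted p = 1.00, and 0.205 with the set number), against -0.06 in A172. CMPK2, a mitochondrial nucleotide kinase, had -0.21 in A172 and 0.38 in U87 (adjusted p = 0.255 with the set number).

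Antigen processing is represented by TAP1, which carries peptides into the endoplasmic reticulum, and PSMB9, a subunit of the immunoproteasome, direct neighbours on chromosome 6. PSMB9 read 3.03, 4.13 and 3.90 in A172 controls and 2.70, 3.76 and 3.83 after knockdown, a log2 fold change of -0.25 (standard error 0.43). TAP1 read 2.50, 2.76 and 2.23 and then 2.04, 2.41 and 2.09, with -0.32 (standard error 0.24). Both were lower in 3 of 3 A172 pairs, and the groups overlapped. In U87 the values were -0.06 and -0.08.

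Between the lines, 1 of the 21 genes tested in both passed the test of a difference, OASL, against 0.00945% of all 21163 probes tested in both (0.421% with the set number). The OASL effect in A172 minus that in U87 was -3.01 (standard error 0.45, adjusted p = 0.0952), and with the set number in the model the adjusted p was 0.00707, when 0.383% of all probes were called with a lower and 0.0378% with a higher effect in A172. Without the set number, the call was lost with normexp (-0.37), quantile normalization (-2.25, adjusted p = 0.512) and the values the authors deposited (-2.49, adjusted p = 0.263), and at an FDR of 0.05. It was kept with no filter on dim probes (adjusted p = 0.193). It was also lost without A172 set 1 or 3 (adjusted p of 0.664 and 0.504) and without U87 set 1, 2, 3 or 4 (adjusted p of 0.803, 0.657, 0.332 and 0.395). With the set number it was kept whichever set was left out, with adjusted p from 0.0194 to 0.121, and lost with normexp (-0.37, adjusted p = 0.204). The A172 side of the difference rests on 3 knockdown arrays below the background threshold, so the size and p of -3.01 carry that floor, and the A172 fall is bounded only at 2.61-fold or more.

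Across cultures, most of these genes ranged over more between set numbers than the size of their log2 fold change. A range over several pair means tends to exceed a mean difference, so the comparison is descriptive only. The range of the pair means was larger than the absolute log2 fold change for 26 of 31 genes in A172 (90.3% of all probes) and for 23 of 23 in U87 (96.1% of all probes), so this was not particular to the list. The median range was 0.81 in A172 and 0.91 in U87, and 0.71 and 0.90 over all tested probes. In A172, set 2 was the highest for 18 of 31 genes (58.1%, against 49.7% of all probes) and set 1 the lowest for 14 (45.2%, against 49.5%). The genes did not move as a block, since 7 (IFIT3, IFIT5, IFI44, SAMD9L, DDX60, PARP14 and TRIM22) were highest in set 1 and lowest in set 2, and 12, among them IFITM1, IFITM2, IFITM3, ISG15 and BST2, were lowest in set 1 and highest in set 2. These are 22.6% and 38.7% of the 31 genes, against 20.2% and 37.0% of all probes. The split was thus near that of all probes and not particular to the list. In U87, set 3 was the highest for 10 of 23 genes (43.5%, against 48.7%) and the lowest for 9 (39.1%, against 32.9%).

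**Figure D4:**
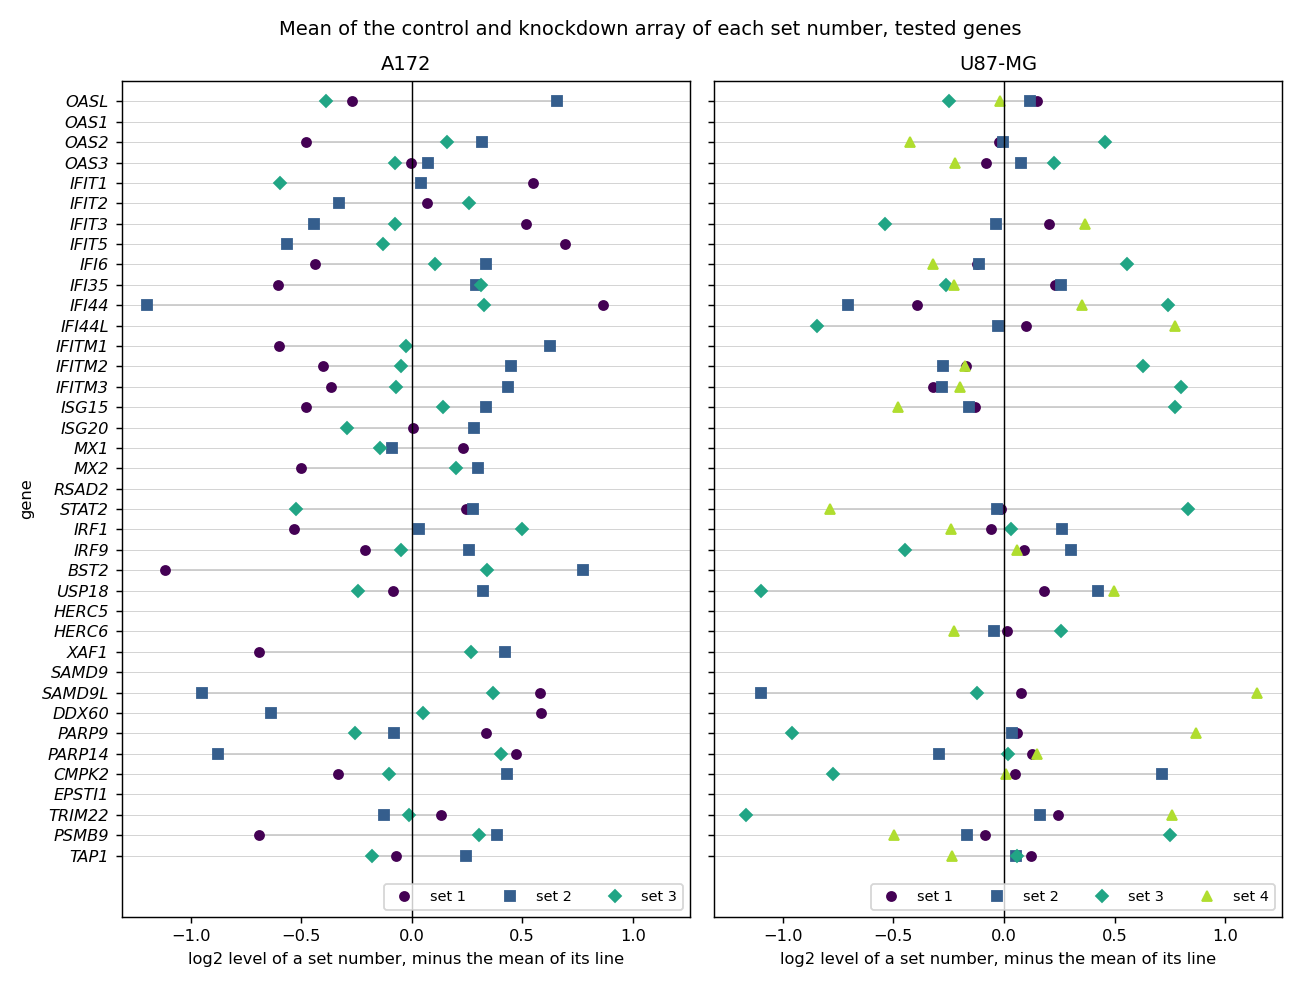
The horizontal axis is the mean log2 relative signal of the control and knockdown array of a set number, minus the mean over the set numbers of the line, for each tested gene, with 1 symbol per set number. In A172 the blue squares of set 2 lie at the right end for 18 of 31 genes and the dark circles of set 1 at the left end for 14.

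The other genes of the pathway were looked at in the same way. Of 84 genes on a list of ligands, receptors, kinases and factors, inhibitors and further interferon-induced genes, 80 had a probe, and 58 were tested in A172 and 53 in U87. Without the set number limma called 0 in either line, and 2 in A172 (IRF2 and GBP2) and 1 in U87 (GBP1) had an unadjusted p under 0.05, against 2.28% and 2.31% of all probes. Of 17 interferon ligands with a probe, 3 were tested in each line, IFNA4, IFNL1 and IFNL2, and IFNB1 and IFNG were above background on 0 arrays of either line.

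With the set number in the model, 5 of the 58 were called in A172, against 3.26% of all probes, and 2 of the 53 in U87, against 4.19%, so the U87 count was no larger a share than that of all probes. Of 6 receptors tested in A172, the type I receptor chain IFNAR1 read -0.04, -0.59 and -0.37 in the control and 0.33, -0.10 and 0.35 after knockdown. Its log2 fold change of 0.53 was called (adjusted p = 0.174), and the call was lost without A172 set 1, 2 or 3 or U87 set 2 or 4 (adjusted p of 0.368, 0.532, 0.662, 0.248 and 0.242). Of 9 kinases and factors, IRF2, a repressor of interferon-induced genes, was called lower in A172 at -0.66 (adjusted p = 0.0796), which was lost without A172 set 1, 2 or 3 (adjusted p of 0.350, 0.372 and 0.356). Of 7 inhibitors, which include SOCS1 and SOCS3, limma called 0 in either line, and 0 had an unadjusted p under 0.05.

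Of 33 further interferon-induced genes tested in A172, 3 were called lower with the set number. GBP1 and GBP3 are guanylate-binding GTPases induced by interferon gamma. GBP1 had -0.89 (adjusted p = 0.0372, lost without A172 set 1, 2 or 3 at 0.218, 0.252 and 0.202), and GBP3 had -0.67 (adjusted p = 0.0682, lost without A172 set 2 or 3 at 0.389 and 0.414). For both, 1 of 3 A172 knockdown arrays was above background and only the controls, the higher group, met the condition for testing, so these calls are weak. PARP12, another ADP-ribosyltransferase, had -0.77 (adjusted p = 0.143, lost without A172 set 1, 2 or 3 at 0.530, 0.465 and 0.445 and without U87 set 1 or 4 at 0.216 and 0.202). Of 30 tested in U87, NLRC5, the activator of MHC class I genes, was called lower at -0.53 (adjusted p = 0.0832). That call was lost without U87 set 1, 2 or 4 (adjusted p of 0.204, 0.278 and 0.263) and without set 3, where the log2 fold change was -0.49. GBP1 was called higher in U87 at 0.95 (adjusted p = 0.0276). It kept the call in the 4 fits that could be made, those without A172 set 1, 2 or 3 or U87 set 3. Without U87 set 1, 2 or 4 too few arrays met the condition for testing, so those sets were not left out. With normexp and the set number these values shrank to between -0.34 for NLRC5 and 0.39 for IFNAR1, and none of the 6 genes was called.

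GBP1, a GTPase that coats intracellular pathogens, lay near background in both lines. In each line only its higher group met the condition for testing, the controls in A172 and the knockdown arrays in U87, so the 2 calls are no support for opposite effects. It read -3.12, -2.30 and -2.14 in A172 controls and -4.07, -3.24 and -2.91 after knockdown, the first 2 of these below the background threshold. In U87 it read -2.09, -1.61, -2.74 and -1.03 and then -0.78, -0.90, -1.77 and -0.22, with the controls of sets 1 and 3 and the knockdown of set 3 below the threshold. The groups overlapped in both lines, and all pairs of a line went the same way. The difference between the lines was -1.84 (adjusted p = 1.00, and 0.0412 with the set number), and the blocked call was lost without A172 set 1, 2 or 3 (adjusted p of 0.211, 0.411 and 0.220).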

How the data were processed

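Total RNA of 14 cultures (3 control and 3 knockdown of A172, 4 and 4 of U87) was measured on one-colour Agilent arrays. The authors extracted each spot's intensity (processed signal, after background removal) with Feature Extraction 11.5.1.1, for an array design that its header ties to hg19, and deposited a table of normalized log2 values whose medians per array lie between 4.49 and 4.56 and whose order of spots matches the processed signal (Spearman correlation 1.0 on every array). The number of arrays limits the precision. The labels give 40 h after electroporation, and the text of the study gives 48 h without a value being affected here.

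The log2 processed signal was reduced by the 75th percentile of each array over the spots that are not controls, outlier spots were left out, and spots of a probe were averaged. Probes well above background (at least 0.5 of their spots) on at least 3 arrays of a group of a line were tested there. 1 limma 3.58.1 model (R 4.3.3, lmFit and eBayes) of the 4 group means was fitted to all 14 arrays over all tested probes, with Benjamini-Hochberg adjustment within a line, calls at an FDR below 0.2 with a log2 fold change of over 0.5 in size, and the difference between lines as an interaction. All p-values are two-sided and from limma.

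Probe accessions were looked up, versions dropped, in the gene table of RefSeq (GRCh38.p14), which named 29033 of 50599 probes. Named in the text are the genes of the list, the LINC00152 probes, pathway genes called in a line with or without the set number, with GBP2 and some ligands and inhibitors added after their values were seen, and cell type markers. Where a gene has several probes, its value is the brightest tested probe by its mean over all arrays. Probes of CMPK2, HERC6, SAMD9L, PARP9 and XAF1 differed, with 1 brighter probe and another near background. The brighter XAF1 probe was itself partly below the background threshold in A172. Tested probes of OAS2 and of IFIT2 went opposite ways in A172. The members and lists (pathway roles, promoter motifs, markers) were chosen with earlier results of these data known. Some genes of these lists are not reported here.

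Set numbers were checked for pairing. Deviations from group means correlated at 0.675 to 0.794 within A172 pairs and at -0.701 to -0.0434 between A172 arrays of different numbers. In U87 the ranges were 0.373 to 0.864 and -0.772 to 0.411, and they overlap. Since the deviations of a group sum to 0, values of different numbers are not independent of those within pairs. The check thus separates the pairs in A172 but not fully in U87, where the pairing rests on the labels. Alternatives concerned background correction (normexp, offset 50, on the median signal, as the columns used hold no mean signal), quantile normalization, the deposited values, the filter on dim probes, outlier spots, each line fitted by itself, the replicate block, the FDR and sets left out. Combinations with the replicate block were chosen after seeing the data. The model was also run on simulated data, and no result given here rests on that run. Other experiments of the study were not analysed here.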

Additional observations from a re-analysis of the deposited data

Results flagged for a closer look

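In 46 groups of 4 U87 arrays, 1 for each gene tested and siRNA, 4 arrays lay far from the others of their group. For these the gap to the nearest other value was 0.848 to 0.875 of the range of the group. Chance gives about 1 in 20 groups if the groups are independent, but arrays of a set number deviated together. No share over all probes is given, so 4 of 46 is not shown to exceed chance. The U87 control array of set 3 read 0.48 for OASL, with 0.99 as the nearest other value, and 2.03 for IFITM3, with 0.95 as the nearest. The U87 knockdown array of set 3 read 1.07 for IFITM2, with 0.34 as the nearest, and the U87 knockdown array of set 4 read -0.48 for PARP9, with -1.31 as the nearest. Set 3 holds the dimmest arrays of the line, with 35.7% of spots well above background on the control array and 40.4% on the knockdown array, and the part of this in the values was not tested.

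The test of the difference between the lines was passed by OASL, with -3.01 for A172 minus U87, where the A172 knockdown arrays were below the background threshold. Without the set number in the model it was passed in 1 of 7 fits with a set left out and in 3 of 7 other settings. For GBP1 the difference was -1.84 and passed the test with the set number in the model, while the lower group of each line lay partly below that threshold. SAMD9L was lower after knockdown in every A172 pair and higher in every U87 pair, with a difference of -1.76. It was singled out by these directions alone, which were not tested, and the test of the difference itself did not pass the threshold (adjusted p = 1.00).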

How the results depend on the processing

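With the replicate block (the set number in the model), 924 probes were called in A172 (308 higher and 616 lower) in place of 52 (13 and 39), 918 in U87 (464 and 454) in place of 11 (2 and 9), and 89 had a different effect between the lines (8 and 81) in place of 2. The genes of the list called were 3 in A172 in place of 1, and 3 in U87 in place of 0, and the block changed no other call among them. Normexp gave 133 probes in A172 (30 higher and 103 lower), 4 in U87, 1 for the difference and 0 genes of the list in A172, and with the block 1 gene in each line. Quantile normalization and the deposited values gave 1 for the difference. An FDR of 0.05 gave 27, 7 and 1. In A172, no filter on dim probes gave 34 (12 higher and 22 lower) and each line fitted by itself gave 14 (7 and 7). The cause was not tested.

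With a set left out, A172 had 4 to 127 probes called, U87 had 2 to 14 and the difference 0 to 3. With the block and a set left out these were 228 to 1422, 82 to 738 and 2 to 102, and with the block and normexp 636, 142 and 464. In these blocked fits with a set left out, 1 to 7 genes of the list were called in A172 and 0 to 2 in U87. The median log2 fold changes of the list moved by less than their spread under every alternative run. Of 1329 values of single genes under alternatives, 57 changed sign, none of them a called value, 31 passed the threshold that had not and 2 no longer did. Without U87 set 1, 3 or 4 SAMD9L was tested on too few arrays and has no value. Signal over background limits OASL, MX1, XAF1, GBP1 and GBP3 in A172, with second probes of IFIT2 and BST2, and IFIT3, IFI44L, HERC6, SAMD9L, PARP9, PARP14, TRIM22, IFNAR1, PARP12 and GBP1 in U87, whose arrays lay partly below the background threshold.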
